A study of Mus musculus with 6 samples.

Results

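Syndecans and glypicans carry heparan sulfate chains on the cell surface. The 9 genes described here, Sdc1 to Sdc4, Gpc1 to Gpc4 and Gpc6, were taken from the count table of kidney endothelial cells (EC) by their gene symbols, 9 of 55401 listed genes. They comprised 4 syndecans and 5 glypicans. All 9 were among the 18438 genes kept by the filter on low counts. The set was chosen by symbol with the CPM difference between RbpjΔEC and CTRL already known, so that this difference is given below as a description, with no p-value for any of the 9 genes. The sixth glypican gene of the table, Gpc5, was not in the set and is treated with the other heparan sulfate genes.

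Bulk RNA was sequenced from kidney EC of 3 RbpjΔEC mice (labelled Cre +/-; Rbpjf/f) and 3 Cre-negative controls (CTRL; labelled Cre -/-; Rbpjf/f), 1 library per mouse. Both groups carried the floxed Rbpj alleles and received tamoxifen, 1.5 mg injected intraperitoneally 5 times at 8 weeks of age, and both were harvested 12 weeks after induction at a labelled age of 21 weeks. The tamoxifen-dependent Cre is driven by the promoter of Cdh5, which is active in EC of all vessel types, and Rbpj encodes the DNA-binding protein through which Notch receptors regulate transcription. EC were enriched with CD31 beads and sorted as CD31-positive, CD45-negative cells.

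A syndecan spans the membrane once and has a short cytoplasmic tail that binds adaptor and cytoskeletal proteins, whereas a glypican is a globular protein held in the outer leaflet by a lipid (GPI) anchor. Their heparan sulfate chains are sulfated polysaccharides that bind growth factors, chemokines, lipases and coagulation inhibitors. On endothelium they form part of the glycocalyx, the layer between flowing blood and the cell.

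Promoter windows from RefSeq on GRCm38.p6, running from 250 bases before to 50 bases after an annotated transcription start, were at hand for 6 of the 9 genes and not for Sdc2, Gpc1 and Gpc6. The windows of 3 genes are shown because they represent the patterns found below. Sdc3 was the most abundant member and differed little between the groups, Sdc4 was the second most abundant and lower in RbpjΔEC, and Gpc3 was the glypican with the most counts among those that were lower in every RbpjΔEC library. The windows lie at chr4:130792287-130792586 on the plus strand (Sdc3), chr2:164443139-164443438 on the minus strand (Sdc4) and chrX:52613925-52614224 on the minus strand (Gpc3). They are written 5′ to 3′ in the direction of transcription, with GC boxes (GGGCGG on either strand) in capitals.
Sdc3: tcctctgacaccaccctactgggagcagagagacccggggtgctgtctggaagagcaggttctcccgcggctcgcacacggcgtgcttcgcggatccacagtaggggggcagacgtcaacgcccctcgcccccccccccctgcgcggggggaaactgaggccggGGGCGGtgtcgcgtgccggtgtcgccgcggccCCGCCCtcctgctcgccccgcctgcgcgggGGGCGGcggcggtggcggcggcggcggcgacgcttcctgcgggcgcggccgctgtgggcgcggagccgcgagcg
Sdc4: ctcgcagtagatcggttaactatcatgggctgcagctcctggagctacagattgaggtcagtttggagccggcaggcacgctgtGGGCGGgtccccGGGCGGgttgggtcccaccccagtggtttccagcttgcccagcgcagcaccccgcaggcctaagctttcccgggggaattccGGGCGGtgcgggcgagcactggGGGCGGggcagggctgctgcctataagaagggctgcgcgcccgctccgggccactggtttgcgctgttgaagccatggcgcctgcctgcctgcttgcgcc
Gpc3: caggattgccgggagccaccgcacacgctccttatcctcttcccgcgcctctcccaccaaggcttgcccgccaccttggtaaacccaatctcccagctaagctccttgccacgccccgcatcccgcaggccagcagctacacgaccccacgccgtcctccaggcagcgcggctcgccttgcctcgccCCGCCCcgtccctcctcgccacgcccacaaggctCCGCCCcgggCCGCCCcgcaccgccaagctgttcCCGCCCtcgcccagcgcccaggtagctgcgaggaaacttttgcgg
A GC box was found in 6 of 6 windows of the set and in 35.7% of all 32851 windows of this length. The sequences matched 3 GC boxes in Sdc3, 4 in Sdc4 and 4 in Gpc3. The core sequence recognised by RBPJ, TGGGAA on either strand, was found in 0 of the 6 windows and in 25.6% of all windows, and its longer form GTGGGAA, which contains the core, in 0 of 6 and 6.38%. TATAAA (13.6% of all windows), the AP-1 sequence TGANTCA (7.81%) and the ETS core CGGAAG (16.9%) were likewise found in 0 of the 6, both strands being searched. The windows were rich in G and C, from 65.7% in Gpc2 to 77.7% in Sdc3, against a median of 52.7% over all windows. These matches describe letters in a short window and carry no information on binding.

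The libraries held between 39649171 and 47726850 counts on genes. A level of 3 counts, given for reference and not used as a filter, corresponded to 0.0633 to 0.0748 CPM, the count scaled to a fixed library total with TMM factors. CTRL 1 stood apart, with 33764 genes detected where the other libraries had 25629 to 26785, and values that lean on it are also given without it. Values of a group are given in the order of replicates 1, 2 and 3. The Rbpj transcript as a whole stood at 28.1, 29.7 and 29.8 CPM in CTRL, with 28.8, 26.1 and 29.6 CPM in RbpjΔEC. Counts over the whole gene do not show the floxed part alone. The Notch target Hey1 had 16.7, 19.9 and 22.6 CPM in CTRL and 11.5, 8.91 and 14.6 CPM in RbpjΔEC (edgeR adjusted p = 0.0722, by which is meant the quasi-likelihood test with Benjamini-Hochberg adjustment over all tested genes). Defining genes of endothelium were high in every library, with Cdh5 between 1455 and 1930 CPM.

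Kidney EC expressed 1 of these genes far above the others. In CPM per kb of exon, the scale on which different genes can be compared, Sdc3 had 39.7 ± 4.26 (SD, n = 3) in CTRL and Sdc4 had 9.36 ± 2.76 (SD, n = 3). Gpc4 followed with 1.96 ± 0.150 and Gpc3 with 1.57 ± 0.291, then Sdc2 with 0.701 ± 0.0811 and Sdc1 with 0.507 ± 0.0796. The lowest were Gpc1 with 0.248 ± 0.142, Gpc2 with 0.213 ± 0.114 and Gpc6 with 0.139 ± 0.0344 (SD, n = 3 for each). In this order the CTRL values of Gpc4 and Gpc3 overlapped, as did those of Gpc1, Gpc2 and Gpc6. Within libraries, Gpc4 was above Gpc3 in 6 of 6 and Gpc2 above Gpc6 in 6 of 6, whereas Gpc1 was above Gpc2 in 2 of 6. The ranges of Sdc3, Sdc4, Sdc2 and Sdc1 each lay clear of both neighbours. In RbpjΔEC the first 6 genes came in the same order and Gpc1 fell behind Gpc2, whose RbpjΔEC values overlapped those of Gpc1. There Gpc3 overlapped Sdc2, and Sdc2 overlapped Sdc1. With the longest transcript as the length in place of all exons, Gpc6 came before Gpc2 in CTRL and 7 of 9 genes kept their place.

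**Figure D1:**
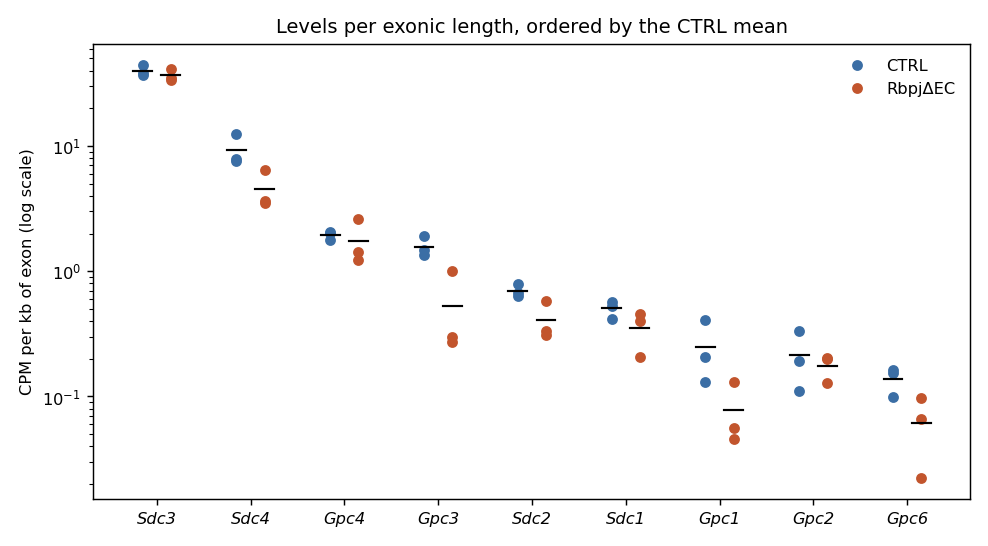
Level of each syndecan and glypican gene in CPM per kb of exon (log axis), ordered by the CTRL mean, with 1 point per library (blue CTRL, orange RbpjΔEC) and a bar at each group mean. Sdc3, at 39.7 in CTRL and 36.7 in RbpjΔEC, stands above Sdc4, at 9.36 and 4.51, and the remaining genes lie at 2.61 or below in all libraries.

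Sdc3 alone held 73.2% ± 2.06 (SD, n = 3) of the summed CPM per kb of the 9 genes in CTRL and 82.3% ± 6.86 (SD, n = 3) in RbpjΔEC. The share of Sdc4 was 17.0% ± 2.61 in CTRL and 10.1% ± 3.60 in RbpjΔEC (SD, n = 3 each). These shares ranged from 70.9% to 74.9% for Sdc3 in CTRL and from 74.5% to 87.4% in RbpjΔEC, with RbpjΔEC 3 at the lowest of the latter. Summed without Sdc3, the other 8 genes had 40.7 ± 8.28 CPM in CTRL and 21.9 ± 8.62 CPM in RbpjΔEC (SD, n = 3 each), with 35.6 to 50.3 CPM in CTRL and 16.4 to 31.8 CPM in RbpjΔEC. These sums are in CPM without regard to length, and Sdc4 alone made up 23.8 CPM of the CTRL mean and 11.5 CPM of the RbpjΔEC mean.

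Relative to CTRL, all 9 genes had a negative log2 fold change in RbpjΔEC, from -0.12 for Sdc3 to -1.67 for Gpc1. Their median was -0.79, against 0.01 over all 18438 tested genes. The levels of 5 genes, Sdc2, Sdc4, Gpc1, Gpc3 and Gpc6, lay below the CTRL range in each of the 3 RbpjΔEC libraries, a pattern that 11.6% of all tested genes showed. Without CTRL 1 the same 5 genes and Sdc1 were lower without overlap (15.0% of all tested genes), and the median log2 fold change of the 9 genes was again -0.79. Without RbpjΔEC 3, Sdc1 and Gpc4 joined the 5 genes (18.0% of all tested genes) and the median was -1.13. Left out in turn, the other 4 libraries gave medians between -0.82 and -0.63, with Sdc3 joining the 5 genes without RbpjΔEC 2 (17.6% of all tested genes). Without CTRL 2, CTRL 3 or RbpjΔEC 1 the same 5 genes were lower without overlap (19.6%, 15.6% and 14.8% of all tested genes). At an edgeR adjusted p under 0.05, 0 of the 9 genes were called, where 1.13% of all tested genes were, 0.559% as lower and 0.575% as higher. Since the set was proposed from this contrast, nothing is read from these counts.

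**Figure D2:**
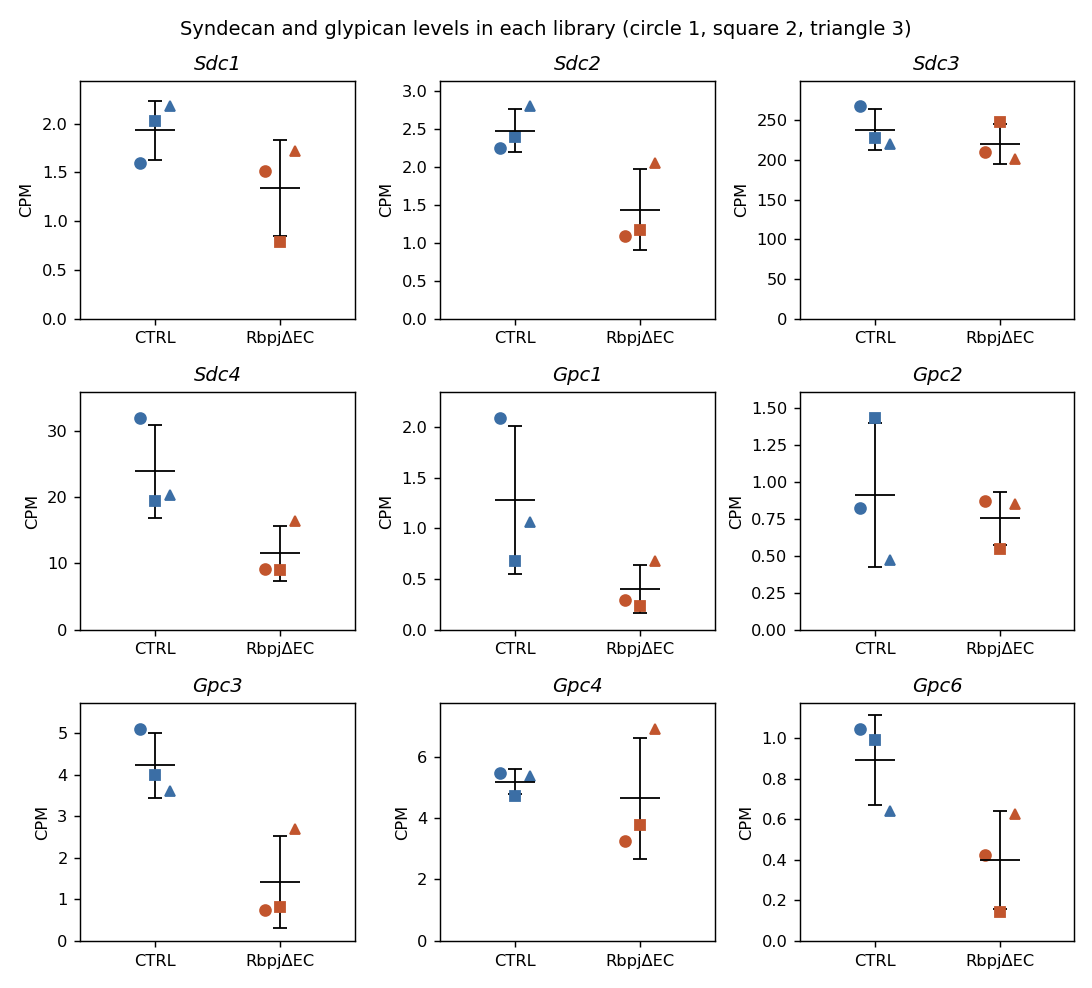
CPM of the 9 genes in each library (y axes start at 0 and differ between panels), with the mean and SD of 3 libraries per group in black and replicate 1, 2 and 3 as circle, square and triangle. In 5 panels, Sdc2, Sdc4, Gpc1, Gpc3 and Gpc6, the orange RbpjΔEC points all lie below the blue CTRL points, with RbpjΔEC 3 the highest of the 3 in each.

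Among the syndecans, Sdc3 (ENSMUSG00000025743.14, chromosome 4 of GRCm38, 130792537 to 130826319, plus strand) encodes a large syndecan first known from nerve tissue. In CPM, CTRL had 267.1, 227.2 and 219.6 of Sdc3 and RbpjΔEC had 210.2, 248.0 and 200.9. The groups overlapped, with RbpjΔEC 2 above CTRL 2 and CTRL 3. The log2 fold change of Sdc3 was -0.12 (standard error, SE, 0.0977) and lay between -0.21 and -0.028 when 1 library in turn was left out. The group means were 238.0 ± 25.5 CPM in CTRL and 219.7 ± 24.9 CPM in RbpjΔEC (SD, n = 3 each). Antisense transcripts Gm12970 and Gm26716 overlap exons of Sdc3 and had at most 12 counts in any library.

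Sdc4 (ENSMUSG00000017009.3, chromosome 2, 164424247 to 164443887, minus strand) encodes the broadly expressed syndecan of focal adhesions. The 3 controls held 1283, 917 and 855 counts of Sdc4, whereas RbpjΔEC held 412, 377 and 654. In CPM these were 31.9, 19.4 and 20.2 in CTRL and 9.18, 8.98 and 16.3 in RbpjΔEC. CTRL 1 was well above the other controls and RbpjΔEC 3 well above the other RbpjΔEC libraries, but the groups did not overlap. The group means were 23.8 ± 7.03 CPM in CTRL and 11.5 ± 4.17 CPM in RbpjΔEC (SD, n = 3 each), the latter 48.2% of the former. Sdc4 had a log2 fold change of -1.05 (SE 0.316), -0.79 without CTRL 1 and -1.39 without RbpjΔEC 3. As a share of the Sdc3 level in the same library, Sdc4 reached 20.0% to 28.1% in CTRL and 8.51% to 19.1% in RbpjΔEC in CPM per kb.

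Sdc2 (ENSMUSG00000022261.6, chromosome 15, 32920723 to 33034935, plus strand) encodes the syndecan typical of mesenchymal cells and is also made by endothelium. It had 2.24, 2.39 and 2.79 CPM in CTRL and 1.09, 1.17 and 2.04 CPM in RbpjΔEC. The gap between the groups was narrow, from 2.04 CPM in RbpjΔEC 3 to 2.24 CPM in CTRL 1. Exact Poisson intervals (95%, counting error only) of these values overlapped, from 1.63 to 2.54 CPM and from 1.80 to 2.75 CPM. The log2 fold change of Sdc2 was -0.79 (SE 0.302) and between -1.13 and -0.62 when 1 library was left out. Sdc1 (ENSMUSG00000020592.14, chromosome 12, 8771323 to 8793715, plus strand), the syndecan of epithelia and plasma cells, had 1.59, 2.03 and 2.18 CPM in CTRL and 1.52, 0.786 and 1.72 CPM in RbpjΔEC. RbpjΔEC 3 exceeded CTRL 1, so the groups overlapped, and the log2 fold change of Sdc1 was -0.53 (SE 0.331), between -0.74 and -0.26 with 1 library left out.

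Of the glypicans, Gpc3 (ENSMUSG00000055653.13, X chromosome, 52272426 to 52613950, minus strand), a growth regulator that binds Hedgehog and Wnt proteins, had 205, 189 and 152 counts in CTRL but 33, 34 and 108 counts in RbpjΔEC. This corresponded to 5.10, 3.99 and 3.60 CPM in CTRL and 0.736, 0.810 and 2.69 CPM in RbpjΔEC. RbpjΔEC 3 lay nearer to the controls than to the other RbpjΔEC libraries. Its Poisson interval (95%, counting error only), from 2.21 to 3.25 CPM, overlapped that of CTRL 3, from 3.05 to 4.22 CPM. The means were 4.23 ± 0.782 and 1.41 ± 1.11 CPM (SD, n = 3 each), and the log2 fold change of Gpc3 was -1.59 (SE 0.470). Without RbpjΔEC 3 it was -2.45, and without RbpjΔEC 1 it was -1.27.

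Gpc1 (ENSMUSG00000034220.7, chromosome 1, 92831645 to 92860779, plus strand) encodes the glypican described as a flow sensor of the endothelial glycocalyx. It had only 84, 32 and 45 counts in CTRL and 13, 10 and 27 counts in RbpjΔEC. In CPM these were 2.09, 0.676 and 1.06 in CTRL and 0.290, 0.238 and 0.673 in RbpjΔEC. The groups were separated by the small step from 0.673 CPM in RbpjΔEC 3 to 0.676 CPM in CTRL 2, while exact Poisson intervals (95%, counting error only) of these 2 values ran from 0.444 to 0.979 CPM and from 0.462 to 0.954 CPM. For Gpc1 the log2 fold change was -1.67 (SE 0.530), -1.12 without CTRL 1 and -2.25 without RbpjΔEC 3. On the opposite strand, Ankmy1 shares 977 exonic bases with Gpc1, and it had 26, 25 and 25 counts in CTRL and 26, 29 and 23 counts in RbpjΔEC. How strand was used in counting is not given in the sources used here.

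Gpc6 (ENSMUSG00000058571.11, chromosome 14, 116925315 to 117976544, plus strand), a close relative of Gpc4 in sequence, had 1.05, 0.992 and 0.639 CPM in CTRL and 0.423, 0.143 and 0.623 CPM in RbpjΔEC. Here too the nearest libraries, CTRL 3 with 27 counts and RbpjΔEC 3 with 25 counts, were not resolved by counting. Its log2 fold change was -1.17 (SE 0.512), between -1.64 and -0.77 with 1 library left out. Gpc4 (ENSMUSG00000031119.4, X chromosome, 52053021 to 52165252, minus strand), the glypican with the most CPM per kb in these cells, had 5.45, 4.73 and 5.37 CPM in CTRL and 3.25, 3.76 and 6.91 CPM in RbpjΔEC. RbpjΔEC 3 exceeded all controls and the other 2 lay below them. Its log2 fold change was -0.16 (SE 0.263) and ranged from -0.56 without RbpjΔEC 3 to 0.040, a change of sign, without RbpjΔEC 1. Gpc2 (ENSMUSG00000029510.15, chromosome 5, 138273655 to 138280005, minus strand), known from developing neurons, had 0.822, 1.44 and 0.473 CPM in CTRL and 0.869, 0.548 and 0.848 CPM in RbpjΔEC. The groups overlapped fully, and the log2 fold change of -0.27 (SE 0.443) became 0.22 without CTRL 2 and -0.58 without CTRL 3. Gpc2 shares 2376 exonic bases with Gm43720 on the same strand, which was listed with at most 2 counts, so that its counts are uncertain.

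**Figure D3:**
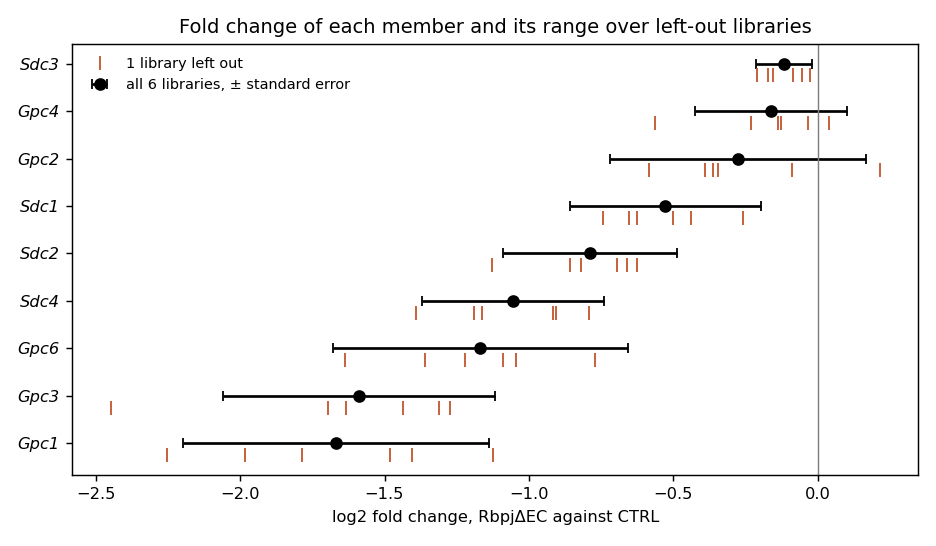
Log2 fold change (RbpjΔEC against CTRL) of the 9 genes, black points with a standard error derived from edgeR's F statistic, with orange ticks for the 6 fits that each left out 1 library. All black points lie below 0, from -0.12 (Sdc3) to -1.67 (Gpc1), and the ticks of Gpc4 and Gpc2 reach above 0.

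Several of these genes took the same course over the libraries. RbpjΔEC 3 was the highest RbpjΔEC library for 7 of the 9 genes (not for Sdc3 and Gpc2), and CTRL 1 was the highest CTRL library for 6 (not for Sdc1, Sdc2 and Gpc2). On log2 CPM over the 6 libraries, Pearson's r was 0.983 between Sdc4 and Gpc1, 0.966 between Sdc4 and Gpc3, 0.951 between Sdc2 and Gpc3 and 0.918 between Gpc1 and Gpc3. Without CTRL 1 these 4 values were 0.969, 0.994, 0.983 and 0.940. For Sdc3, r was 0.364 with Sdc4 and 0.212 with Gpc3, and without CTRL 1 it was -0.296 and -0.255. These values describe libraries that share the group difference and are given without a test.

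Among the 10439 tested genes with a mean of at least 5 CPM, the course of Gpc1 was most like that of Ier3ip1 (r = 0.998), Gtf3c6 (0.994), Marchf6 (0.992), Fat1 (0.989) and Tpr (0.989). The range of these genes was mostly much smaller. Ier3ip1 had 20.9, 17.6 and 18.8 CPM in CTRL and 15.7, 15.4 and 17.9 CPM in RbpjΔEC. Fat1, a large protocadherin, moved more, with 40.4, 25.2 and 26.6 CPM in CTRL and 16.2, 13.9 and 23.2 CPM in RbpjΔEC. The genes most like Gpc3 were 2610021A01Rik (r = 0.995), Nek7 (0.994), Ezr (0.992), Mt1 (0.990) and Ceacam1 (0.989), each over 6 libraries. Without CTRL 1, r lay between 0.977 and 0.996 for these genes of Gpc1 and between 0.987 and 0.994 for those of Gpc3. Of these, Mt1, a metallothionein, had 9.11, 7.43 and 5.75 CPM in CTRL and 2.25, 2.41 and 5.86 CPM in RbpjΔEC.

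Markers of other kidney cells were detected, and some moved with the same libraries as the members. In bulk RNA, fewer cells of a type and less RNA per cell cannot be told apart. A list of 9 markers of parietal and urothelial epithelium summed to 30.4, 15.5 and 17.5 CPM in CTRL but 5.53, 6.67 and 12.6 CPM in RbpjΔEC, with CTRL 1 highest of all and RbpjΔEC 3 highest of its group, as for Sdc4, Gpc1 and Gpc3. Its largest contributor was Cdh1, the epithelial cadherin, with 21.6, 9.82 and 10.4 CPM in CTRL and 2.70, 3.86 and 7.21 CPM in RbpjΔEC, while Upk3a, Krt5 and Krt19 were at or near 0. The 7 fibroblast markers summed to 4.62 to 7.07 CPM in CTRL and 1.54 to 2.92 CPM in RbpjΔEC, with Dpt at 0 in all libraries, Lum at or near 0, and Pdgfra called lower (log2 fold change -1.67, edgeR adjusted p = 0.0468). The 11 mural markers summed to 106.8 to 140.6 CPM in CTRL and 82.4 to 105.8 CPM in RbpjΔEC, with 3 of 10 tested called lower (Acta2, Myh11 and Rgs5). Of the 10, 8 had a negative log2 fold change, while Kcnj8 and Abcc9 (0.93 and 1.03) lay above the CTRL range in each RbpjΔEC library. Neither was called by edgeR, and DESeq2 called 7 mural markers lower and Kcnj8 higher. The part of these cells in the levels of Sdc2, Sdc4, Gpc1, Gpc3 and Gpc6 was not tested.

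The 9 tubule markers ranged from 293.6 to 423.1 CPM in CTRL and from 128.1 to 461.5 CPM in RbpjΔEC, with RbpjΔEC 3 the highest, as it was for Gpc4. They did not move together, since 5 of 9 had a positive log2 fold change (Lrp2 1.27 and Cubn 0.98 among them) and 4 a negative one (Umod -1.19, Slc12a3 -1.79). The 5 podocyte markers, of which Podxl is also an endothelial gene, summed to 3182 to 3557 CPM in CTRL and 2589 to 2857 CPM in RbpjΔEC. Of plasma cells, which carry Sdc1, the 6 markers summed to 118.5 to 152.9 CPM in CTRL and 84.8 to 138.4 CPM in RbpjΔEC, almost all of it from Prdm1, whereas Jchain did not exceed 0.380 CPM. The 5 B cell markers summed to at most 1.31 CPM. The 7 macrophage markers ranged from 14.2 to 15.1 CPM in CTRL and from 23.7 to 28.0 CPM in RbpjΔEC, where Cd68 was called higher (log2 fold change 1.27, edgeR adjusted p = 0.0154) while the other 3 tested markers had negative log2 fold changes (Csf1r -1.57, Lyz2 -1.25 and C1qa -0.21) and were not called by edgeR, DESeq2 calling Csf1r lower, so that the higher sum came from Cd68. Among EC lists, the 10 pan-endothelial markers summed to 17337 to 19338 CPM in CTRL and 15766 to 16184 CPM in RbpjΔEC. Of these 10, 7 had a negative log2 fold change and 3 a positive one, 0 were called by edgeR and DESeq2 called 3 lower. The 10 arterial markers summed to 2389.9 to 2606 and 2151 to 2279 CPM with 2 called lower by edgeR and 6 by DESeq2, the 6 glomerular markers to 2004 to 2489 and 1363 to 1778 CPM with 3 called lower by edgeR and 4 by DESeq2, and the 6 lymphatic markers to 619.6 to 712.0 and 645.0 to 681.3 CPM. All 6 glomerular markers, Lpl among them, lay below the CTRL range in each RbpjΔEC library, and their sum reached 59.1%, 59.7% and 77.1% of the CTRL mean there, RbpjΔEC 3 being highest, while CTRL 1 was the lowest control. The part of glomerular EC in the members' levels was not tested. Almost all of the lymphatic sum was Flt4 (log2 fold change 0.014), which EC of other vessels can also express, and of the other tested markers Lyve1 (-1.19), Ccl21a (-1.47) and Reln (-0.72) had negative values, Prox1 a positive one (0.17), and none was called by edgeR while DESeq2 called 2 lower.

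**Figure D4:**
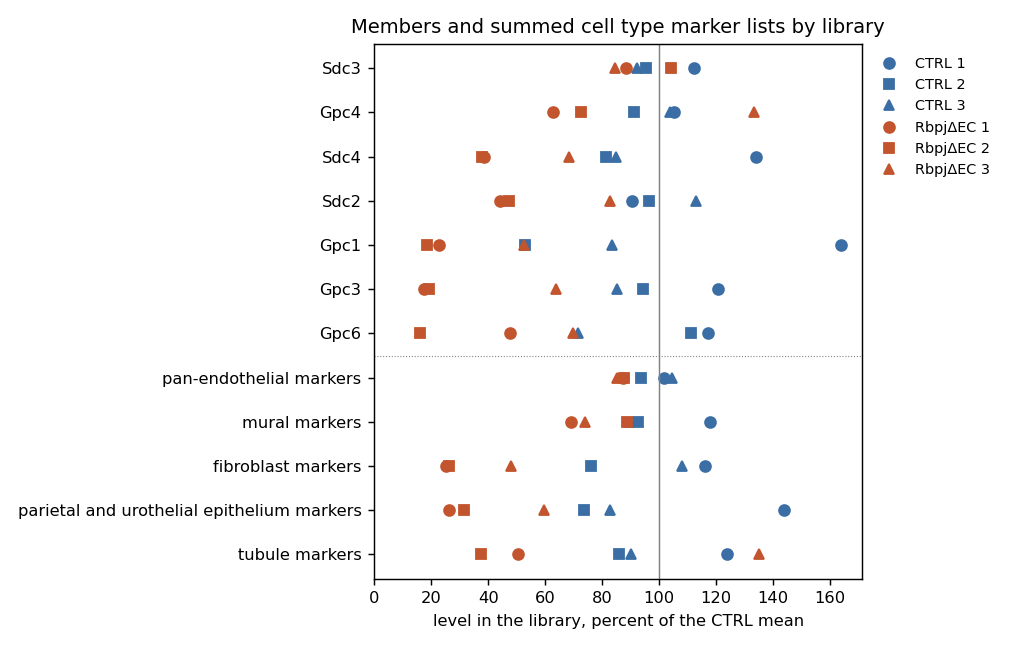
Level of 7 members and of 5 summed marker lists in each library as a percent of the CTRL mean (x axis from 0), blue for CTRL and orange for RbpjΔEC, with circle, square and triangle for replicates 1, 2 and 3. Sdc4, Gpc1 and Gpc3 and the fibroblast and epithelial lists have RbpjΔEC 1 and 2 lowest, RbpjΔEC 3 next and the CTRL libraries at the right. For Sdc3 the groups overlap. The endothelial list spans a narrow range but lies lower in RbpjΔEC (85.3% to 87.5%) than in CTRL (93.8% to 104.6%), without overlap.

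The enzymes that build and edit heparan sulfate were examined as the setting in which the core proteins act. Of 97 genes in 9 lists of the pathway, 83 were tested. With edgeR and adjustment over all tested genes, 4 (4.82%) were lower and 1 was higher in RbpjΔEC, against 0.559% and 0.575% of all tested genes. At an unadjusted p under 0.05, 25 were lower and 3 higher, where 8.62% and 8.88% of all tested genes were. DESeq2 called 15 lower and 2 higher, and 2.77% and 2.35% of all tested genes. For the 83 genes the median log2 fold change in edgeR was -0.12 against 0.01 over all genes. These lists were written with earlier results of the same data known.

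Of the 35 tested genes for chain synthesis, sulfation, donor supply, editing and degradation, 0 were called by edgeR, and DESeq2 called 0. At an unadjusted p under 0.05, 5 of them were lower and 1 was higher. In the linkage list, with 6 genes tested, Fam20b, the xylose kinase of the linker sugar, had 49.2 ± 3.78 CPM in CTRL and 42.4 ± 2.29 CPM in RbpjΔEC (SD, n = 3 each). Among 4 tested polymerization genes, Ext1, a subunit of the chain polymerase, had 30.9 ± 0.376 and 35.3 ± 1.03 CPM, and its partner Ext2 had 103.0 ± 7.67 and 92.4 ± 6.21 CPM (CTRL and RbpjΔEC, SD, n = 3 each). The log2 fold change was 0.19 for Ext1 (SE 0.0775) and -0.16 for Ext2 (SE 0.0792). The next genes by p-value in these lists were B3galt6 (-0.31) and Xylt2 (0.16) for the linker and Extl2 (-0.23) for the chain, none of which passed in either test.

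Of 16 genes of sulfation and epimerization, 8 were tested. Ndst1, the N-deacetylase and N-sulfotransferase that begins chain modification, had 166.6 ± 10.6 CPM in CTRL and 183.3 ± 8.70 CPM in RbpjΔEC, and Hs2st1, the uronyl 2-O-sulfotransferase, had 40.2 ± 1.95 and 35.9 ± 0.666 CPM (SD, n = 3 each). On the log2 scale, the largest difference among the 8 tested genes was that of Hs3st3a1, a 3-O-sulfotransferase of low level, with 1.30 ± 0.145 CPM in CTRL and 0.650 ± 0.154 CPM in RbpjΔEC (SD, n = 3 each), a log2 fold change of -0.996 (SE 0.344) that did not pass (edgeR adjusted p = 0.163). In the list of donor supply, Papss1, which makes the sulfate donor PAPS, had a log2 fold change of -0.26 (SE 0.0890), and the PAPS transporters Slc35b2 and Slc35b3 had 0.21 and 0.17. In the list of editing and degradation, the values were -0.64 for heparanase (Hpse, SE 0.335), -0.21 for the lysosomal sulfatase Ids (SE 0.0769) and -0.20 for Hgsnat (SE 0.0808).

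Of 7 other tested proteins that bear heparan sulfate, 1 was lower and 0 higher in edgeR's test, while 4 were lower and 0 higher by unadjusted p and 2 were lower in DESeq2. Col18a1, the collagen of vascular basement membranes from which endostatin is cut, fell in RbpjΔEC, with 144.3, 141.5 and 156.4 CPM in CTRL and 74.5, 71.1 and 83.3 CPM in RbpjΔEC. Col18a1 differed by -0.95 on the log2 scale (SE 0.0786, edgeR adjusted p = 0.000457), and it passed in all 6 fits that left out 1 library. Nrp1, a VEGF and semaphorin co-receptor that can carry a chain, had 2398 ± 110.8 CPM in CTRL and 1882 ± 240.3 CPM in RbpjΔEC (SD, n = 3 each) and did not pass (edgeR adjusted p = 0.0975). Srgn had a log2 fold change of -0.26 (SE 0.0983). Gpc5, the glypican outside the set, had 13, 3 and 4 counts in CTRL and 0, 0 and 2 counts in RbpjΔEC and was below the filter. Its RbpjΔEC libraries all lay below the CTRL range, CTRL 1 held most of its counts, and it was not tested.

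Among 12 proteins that bind syndecan tails or the actin structures they anchor to, 2 were lower and 0 higher in edgeR's test, while 3 were lower and 0 higher by unadjusted p and 3 were lower in DESeq2. Prkca, the protein kinase C isoform that binds the tail of syndecan-4, fell from 19.2, 20.5 and 21.3 CPM in CTRL to 13.8, 11.8 and 13.7 CPM in RbpjΔEC. The groups were well separated, and the log2 fold change of Prkca was -0.64 (SE 0.105, edgeR adjusted p = 0.0191). Actn1, an alpha-actinin of focal adhesions, had 35.4, 33.8 and 30.5 CPM in CTRL and 25.8, 22.8 and 20.5 CPM in RbpjΔEC, that is a log2 difference of -0.53 (SE 0.104, edgeR adjusted p = 0.0384). When 1 library was left out, the adjusted p of Prkca was up to 0.0929, above 0.05 without CTRL 3, RbpjΔEC 1 or RbpjΔEC 2. That of Actn1 was up to 0.134 and above 0.05 without CTRL 1, CTRL 3, RbpjΔEC 1 or RbpjΔEC 2. Ezr, a linker of membrane proteins to actin and one of the genes most like Gpc3 above, had 40.1 ± 2.29 CPM in CTRL and 30.8 ± 4.58 CPM in RbpjΔEC (SD, n = 3 each) and did not pass (edgeR adjusted p = 0.101).

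Of 8 tested genes for shedding and release of core proteins, 0 passed in edgeR's test, while at an unadjusted p under 0.05, 3 were lower and 1 was higher, and DESeq2 called 1 lower (Mmp2) and 1 higher (Adamts4). The sheddase Adam17 had 96.6 ± 1.87 CPM in CTRL and 84.4 ± 2.13 CPM in RbpjΔEC, the matrix protease Mmp2 7.06 ± 1.28 and 3.44 ± 1.03 CPM, and Adamts4 5.45 ± 0.794 and 9.22 ± 1.43 CPM (SD, n = 3 each). The log2 fold changes were -0.19, -1.04 and 0.76, with edgeR adjusted p of 0.152, 0.0660 and 0.0602.

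Of 21 tested ligands and receptors that bind heparan sulfate, 1 was lower and 1 higher in edgeR's test, while 10 were lower and 1 higher by unadjusted p and 9 were lower and 1 higher in DESeq2. Lpl, the lipoprotein lipase that binds heparan sulfate on the endothelial surface, fell in RbpjΔEC and is also 1 of the 3 glomerular EC markers called lower above, with 90.5, 83.0 and 79.5 CPM in CTRL and 44.2, 39.3 and 57.6 CPM in RbpjΔEC. On the log2 scale Lpl differed by -0.84 (SE 0.128, edgeR adjusted p = 0.0212). Hbegf, the heparin-binding ligand of the EGF receptor, rose from 105.0, 137.9 and 131.2 CPM in CTRL to 163.6, 170.6 and 178.6 CPM in RbpjΔEC, a log2 difference of 0.45 (SE 0.0957, edgeR adjusted p = 0.0496). In fits on 5 libraries the adjusted p of Lpl was up to 0.105 and above 0.05 without CTRL 1, CTRL 3 or RbpjΔEC 1, and that of Hbegf was below 0.05 only without CTRL 2 (0.0221), reaching 0.155 without RbpjΔEC 1. Robo1, a Slit receptor, had 4.48 ± 0.839 CPM in CTRL and 2.16 ± 0.372 CPM in RbpjΔEC (SD, n = 3 each) and did not pass (edgeR adjusted p = 0.0562).

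**Figure D5:**
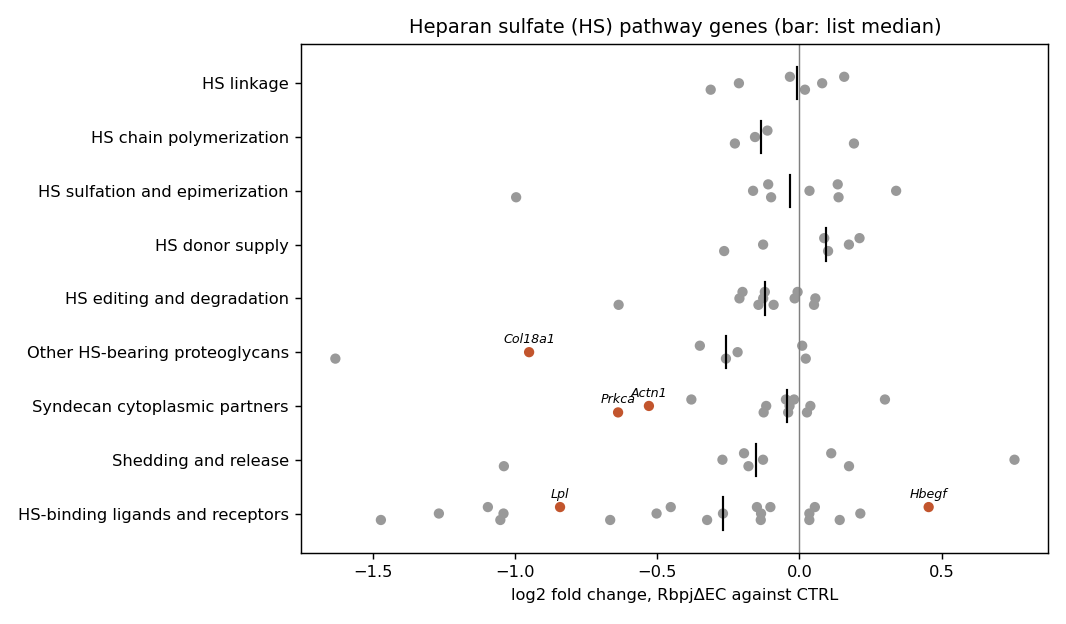
Log2 fold change (RbpjΔEC against CTRL) of the 83 tested genes of the heparan sulfate (HS) pathway by list, with 1 point per gene, a bar at each list's median and genes past an adjusted p of 0.05 in orange with their names. The named genes are Col18a1, Prkca, Actn1 and Lpl to the left of 0 and Hbegf to the right, and the lists of chain synthesis hold none.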

How the data were processed

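RNA of sorted kidney EC from 3 CTRL and 3 RbpjΔEC mice was prepared with a SMARTer stranded total RNA pico kit and sequenced. Per the submitters' processing notes, the authors trimmed reads with Trim Galore 0.6.4, aligned them with STAR 2.6.1d to the mouse genome and deposited 1 table of raw counts per gene from featureCounts (Subread 1.6.4). How strand was set in counting is not given in the sources used here. Each library comes from 1 mouse, and library totals lay between 39649171 and 47726850 counts.

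From these counts, genes were kept with filterByExpr and fitted with edgeR 4.0.16 (TMM, quasi-likelihood test, robust, R 4.3.3), with Benjamini-Hochberg adjustment over 18438 genes at 0.05. CPM used library size times the TMM factor, and CPM per kb used the union of exons in GENCODE release M21 on GRCm38, an earlier release than the M25 that the study's methods name. Gene coordinates and overlaps come from the same release. Fold changes came from the edgeR fit at its default prior count, and log2 CPM for the correlations used a prior count of 2. Standard errors were computed as the absolute log2 fold change divided by the square root of the test's F statistic. Intervals are exact Poisson intervals (95%) and cover counting error only. Both count tests were checked on simulated counts with known fold changes. Alternatives were DESeq2 1.42.0, other size factors, other filters, a replicate block and leaving out each library.

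The members and gene lists were chosen with earlier results of these data known. Pathway genes were named where called and, per list, for the 3 smallest p-values. The genes most like Gpc1 and Gpc3 were the 5 with the highest Pearson's r of log2 CPM among tested genes with a mean of at least 5 CPM. Promoters are RefSeq windows on GRCm38.p6.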

Additional observations from a re-analysis of the deposited data

How the results depend on the processing

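Of all tested genes, 209 of 18438 were called in edgeR's quasi-likelihood test, 1436 of 38324 without the filter on low counts and 944 of 18438 with DESeq2. When 1 library was left out, 19021 to 19163 genes were tested and between 21 and 700 were called (54 without CTRL 1, 700 without CTRL 2, 24 without CTRL 3, 21 without RbpjΔEC 1, 48 without RbpjΔEC 2 and 521 without RbpjΔEC 3). Of the heparan sulfate pathway genes, 5 of 83 were called, 19 of 97 without the filter and 17 of 83 with DESeq2. When 1 library was left out, 1 to 12 of 83 or 85 were called (2 without CTRL 1, 10 without CTRL 2, 1 without CTRL 3, 1 without RbpjΔEC 1, 2 without RbpjΔEC 2 and 12 without RbpjΔEC 3). Of the 9 members, 0 were called, 2 without the filter (Gpc1 and Gpc3), 1 with DESeq2 (Gpc3) and 0 to 2 when 1 library was left out (2, Sdc4 and Gpc3, without RbpjΔEC 3). These stand beside the calls over all tested genes in the same settings, given above. Nothing is read from the member counts because the set was proposed from the same contrast. Correlations and left-out medians without single libraries were chosen after seeing the data. The cause of these changes was not tested. With library size alone, the split of calls moved from 106 higher and 103 lower to 159 higher and 82 lower. A filter of 1 CPM in 3 libraries removed Gpc1, Gpc2 and Gpc6. The log2 fold change turned positive for Gpc4 without RbpjΔEC 1 and for Gpc2 without CTRL 2, and the set was proposed with the signs of the others known, so that they say nothing of stability. The replicate numbers did not pair the samples (deviations of same-numbered libraries correlated with r of 0.0231, 0.00916 and 0.00544), and with a replicate block 344 genes, 8 pathway genes and 0 members were called. Of the members, Gpc1, Gpc2 and Gpc6 had 6 to 84 counts per library, which limits what their levels can show.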
